A study of Mus musculus with 6 samples.

Results

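The 9 genes described here write, maintain, read or remove DNA methylation: *Dnmt1*, *Dnmt3a*, *Dnmt3b*, *Uhrf1*, *Tet1*, *Tet2*, *Tet3*, *Mbd2* and *Tdg*. They were chosen by symbol among the 54525 gene rows of the count files, and all 9 were present. RNA was sequenced from C2C12, an established line of mouse myoblasts. These cells exit the cell cycle and fuse into multinucleated myotubes when the serum in the medium is lowered. The D0 group held 3 samples of myoblasts in growth medium with fetal bovine serum. The D5 group held 3 samples after 5 days in differentiation medium with horse serum at a lower concentration. Both groups are labelled WT with no treatment, and the label for cell type reads myoblasts at both times, so that only the titles tell D0 from D5. The samples come from 1 line, and the labels do not say whether the 3 samples of a group were grown as separate cultures, so p-values measure the spread between these samples, which may be technical. Transcripts were measured, not methylation or protein.

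DNA methylation in mammals sits mostly on the cytosine of CpG dinucleotides. DNMT3A and DNMT3B place it on unmethylated DNA, while DNMT1, brought to newly replicated DNA by UHRF1, copies it onto the daughter strand at each division. The TET enzymes oxidise 5-methylcytosine, and the glycosylase TDG removes the most oxidised forms so that base excision repair can put back an unmodified cytosine. In skeletal muscle, loss of methylation at muscle genes is a known part of the passage from myoblast to myotube.

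The libraries held 36555048 to 40895840 counts on genes at D0 and 25449759 to 25811300 counts at D5, and the ERCC spike-ins, synthetic RNAs added before sequencing, took 0.72% to 2.09% of the counts, with the highest share in D5 replicate 3. All 3 myoblast markers fell at D5, among them *Myf5* (log2 fold change -2.32) and *Pax7* (-1.71), and all 6 myotube markers rose, led by *Myh3* (11.44) and *Mymk* (9.02). Of the markers of other cell types, 4 of 5 fibroblast genes were higher at D5, against 42.2% of all genes tested. The fifth, *Thy1*, had 3 counts or fewer in every library. The summed level of the fibroblast genes was 41.9 to 47.7 CPM (counts per 1000000 counts, after TMM scaling) at D0 and 532 to 559 CPM at D5. Most of this sum was *Pdgfrb*, with means of 42.9 CPM at D0 and 489 CPM at D5. *Dpt* had a log2 fold change of 7.85 and a mean of 20.1 CPM at D5. *Lum* had 0 counts in all D0 libraries and a mean of 9.97 CPM at D5. It was at least 132-fold higher at D5 against a floor of 3 counts in each library. The defining adipocyte genes *Adipoq*, *Plin1* and *Cidec* and the leukocyte genes *Ptprc*, *Adgre1* and *Cd3e* had 3 counts or fewer in every library. The remaining genes of these lists, *Pparg* (-1.27) and *Cd68* (-0.50), were lower at D5, as were the endothelial genes *Kdr* (-3.52) and *Tek* (-1.49), while *Pecam1* and *Cdh5* did not pass the filter on low counts. The part of other cell types in the results below was not tested, and in bulk RNA fewer cells of a type and less RNA per cell cannot be told apart.

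In myotubes 8 of the 9 genes were lower than in myoblasts and 1, *Tet1*, was higher, by edgeR's quasi-likelihood test with Benjamini-Hochberg adjustment over the 16290 genes tested and a threshold of 0.05. Most genes of the transcriptome changed in this comparison, since 40.8% of all genes tested were called lower and 42.2% higher. The same 8 genes had their highest D5 value below their lowest D0 value, which held for 41.1% of all genes, and none had all D5 values above all D0 values, which held for 42.2%. The median log2 fold change of the 9 genes was -0.53, against 0.002 over all genes tested, and their summed level went from 879 to 888 CPM at D0 to between 392 and 406 CPM at D5. The decreases were far from equal. *Uhrf1* was left with 3.84% of its D0 level, *Dnmt1* with 19.7% and *Tdg* with 30.3%, whereas *Tet2* kept 94.6%. These are levels relative to the other genes of a library. Without scaling, counts were compared as if all libraries had the same depth. The smaller size of the D5 libraries by itself then lowers every log2 fold change. The median of all genes was -0.68 in that setting and -0.58 when libraries were scaled to the ERCC spike-ins. With the spike-ins 3 of the 9 genes, *Uhrf1*, *Dnmt1* and *Tdg*, passed the threshold, all of them lower.

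**Figure D1:**
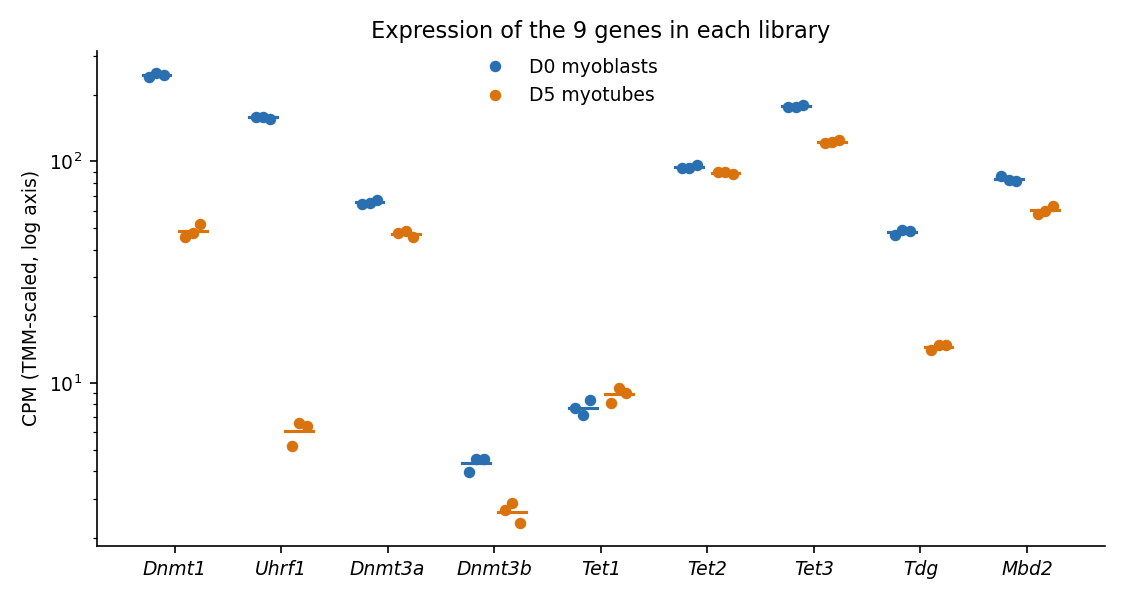
Level of each of the 9 genes in every library, in CPM after TMM scaling on a log axis. Points are the 3 D0 and the 3 D5 libraries and bars their means. *Uhrf1* has the widest gap, from a mean of 158 CPM to 6.06 CPM, and *Tet1* is the gene whose groups overlap.

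Of the 9 genes the maintenance pair *Dnmt1* and *Uhrf1* had the largest decreases. *Uhrf1* (ENSMUSG00000001228.14, GRCm38 chromosome 17 from 56303321 to 56323486, plus strand) encodes the protein that recognises hemimethylated CpG and brings DNMT1 to it. Its level was 158, 159 and 156 CPM in the D0 libraries and 5.18, 6.57 and 6.43 CPM in the D5 libraries. The groups lay far apart, and the D5 values rest on 130, 162 and 160 counts. The log2 fold change was -4.70 ± 0.056 (SE, edgeR's adjusted p = 8e-34), and 202 of the 16290 genes fell further. Annotated copies of *Uhrf1* share 15.4% of its 50-base stretches, but the rows of these copies, *Gm5648* and *Gm15953*, had at most 7 counts in any library.

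*Dnmt1* (ENSMUSG00000004099.16, chromosome 9 from 20907209 to 20959888, minus strand) is the maintenance methyltransferase. It had 241, 250 and 245 CPM at D0 and 45.5, 47.5 and 51.9 CPM at D5, so every myotube library lay far below every myoblast library. The log2 fold change was -2.35 ± 0.04 (SE, edgeR's adjusted p = 9.4e-30). *Dnmt1* thus kept a larger share of its D0 level than *Uhrf1* did. Per unit of transcript length, as TPM, the ratio of *Uhrf1* to *Dnmt1* was 1.14, 1.1 and 1.1 in the D0 libraries and 0.197, 0.24 and 0.215 in the D5 libraries, 5.15-fold smaller. This ratio and the 6 others tested below each gave an exact two-sided permutation p = 0.1, the smallest that 3 libraries against 3 allow, and an adjusted p of 0.1 over the 7 ratios.

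Both genes have more than 1 annotated start, and 1 promoter window of each held a match to an E2F motif. E2F factors drive the transcription of genes for DNA replication. Windows ran from 250 bases before to 50 bases after a RefSeq start on GRCm38.p6, and 13 windows were found for 8 of the 9 genes. The E2F motif was searched as TTTCGCGC or TTTGGCGC or TTTCCCGC or TTTGCCGC on both strands. It was present in 2 of the 13 windows and in 2.26% of the 32851 windows of all genes. The windows of *Uhrf1* (chr17:56304063-56304362, plus strand) and *Dnmt1* (chr9:20952574-20952873, minus strand) are shown because they hold these matches, and those of *Tdg* (chr10:82629588-82629887, plus strand) and *Tet2* (chr3:133544341-133544640, minus strand) for comparison, as the gene with the next largest decrease and the one with the smallest change. Capitals mark matches to the E2F motif and to CCAAT on either strand, and a match is a string of letters, not a bound site.
Uhrf1: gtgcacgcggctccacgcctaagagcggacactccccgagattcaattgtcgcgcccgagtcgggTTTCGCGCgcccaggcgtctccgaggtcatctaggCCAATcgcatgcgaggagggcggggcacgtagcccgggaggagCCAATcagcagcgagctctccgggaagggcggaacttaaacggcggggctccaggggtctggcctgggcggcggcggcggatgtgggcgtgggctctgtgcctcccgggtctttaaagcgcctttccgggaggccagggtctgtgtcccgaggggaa
Dnmt1: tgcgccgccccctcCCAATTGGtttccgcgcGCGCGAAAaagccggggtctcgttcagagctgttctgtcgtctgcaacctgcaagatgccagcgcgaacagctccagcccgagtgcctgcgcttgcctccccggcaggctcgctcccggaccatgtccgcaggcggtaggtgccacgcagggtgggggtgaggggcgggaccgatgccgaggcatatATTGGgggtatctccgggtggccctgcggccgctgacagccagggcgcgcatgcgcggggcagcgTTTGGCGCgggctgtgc
Tdg: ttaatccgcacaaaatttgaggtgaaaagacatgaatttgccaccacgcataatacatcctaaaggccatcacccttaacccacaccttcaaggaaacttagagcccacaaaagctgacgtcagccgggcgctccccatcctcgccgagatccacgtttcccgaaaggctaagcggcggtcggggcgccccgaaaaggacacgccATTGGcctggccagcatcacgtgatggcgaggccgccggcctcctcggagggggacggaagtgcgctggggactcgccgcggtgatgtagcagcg
Tet2: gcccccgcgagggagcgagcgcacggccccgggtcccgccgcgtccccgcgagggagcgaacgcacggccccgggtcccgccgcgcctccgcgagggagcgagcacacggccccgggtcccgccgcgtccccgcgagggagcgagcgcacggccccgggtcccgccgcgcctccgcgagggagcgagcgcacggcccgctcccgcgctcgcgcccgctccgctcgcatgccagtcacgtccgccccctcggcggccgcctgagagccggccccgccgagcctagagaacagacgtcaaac
In the window of *Uhrf1* the E2F match began at -185 from the start of that window, and in that of *Dnmt1* matches began at -219 and +33. Both windows lie inside the annotated span of their gene, downstream of another annotated start. For *Dnmt1* the nearest other window is chr9:20952930-20953229. A match before these starts is therefore not upstream of the whole gene, and which start the cells used was not tested. CCAAT was present in 6 of the 13 windows, those of *Uhrf1*, *Dnmt1*, *Tdg* and *Tet3*, and in 37.4% of all windows, so it was a common string. The CHR element TTTGAA was found in 2 windows, 1 of *Dnmt3b* and 1 of *Dnmt1*, against 17.9% of all windows. The E-box CAGCTG, a string that myogenic factors bind, was found in the window of *Tet3* alone, against 16.3% of all windows. The GC box GGGCGG was found in 10 of the 13 windows, against 35.7% of all windows. CpG, the dinucleotide on which these enzymes act, was counted in the same windows. That of *Tet2* held 57 CpG dinucleotides, more than in 99.8% of all windows, and those of *Dnmt3a* held 46, 47 and 18, whereas the median over all promoters was 7 (quartiles 3 and 20). The windows of *Dnmt1* held 2, 12 and 33, those of *Uhrf1* 12 and 33, and those of *Dnmt3b*, *Tdg*, *Tet3* and *Tet1* 30, 26, 22 and 17. The *Dnmt3a* windows with 46 and 47 overlap, so part of their sequence was counted in both, also for the GC box.

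DNA replication genes fell alongside the maintenance pair. All 14 genes of a list of S phase and proliferation markers were lower at D5, with a median log2 fold change of -3.89 and a summed level of 3075 to 3104 CPM at D0 and 205 to 218 CPM at D5. *Ccna2*, the cyclin of S and G2 phase, changed by -5.17 and *Mki67*, a marker of cycling cells, by -5.11. Set against these genes, *Uhrf1* fell further than most of the list, since 4 of the 14 fell more than it did, while 13 of the 14 fell more than *Dnmt1* and all 14 more than *Tdg*. This ranking depends on the choice of the list. The replication gene *Pcna*, placed in the list of methyltransferase partners, changed by -1.87, less than *Dnmt1* (-2.35) and close to *Tdg* (-1.72). What part the loss of cycling cells has in the decreases was not tested.

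Relatives and partners of the methyltransferases were also lower. All 6 genes tested of this list were lower at D5, against 40.8% of all genes tested, with a median of -1.38. The decreases differed in size, and *Trdmt1* (-0.89), *Uhrf2* (-0.49) and *Usp7* (-0.43) fell much less than *Hells* and *Lig1*. *Hells*, a chromatin remodeller needed for methylation of repeats, went from 131 ± 3.97 to 5.17 ± 0.156 CPM (SD, n = 3 each; log2 fold change -4.66, adjusted p = 8.7e-34, edgeR). *Lig1*, the ligase that joins Okazaki fragments, changed by -3.31 (adjusted p = 5.1e-29, edgeR). *Dnmt3l*, a cofactor of the de novo enzymes in germ cells, and *Dppa3*, which keeps UHRF1 off chromatin in oocytes, had 3 counts or fewer in every library.

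The de novo methyltransferases changed much less than *Dnmt1*. *Dnmt3a* (ENSMUSG00000020661.15, chromosome 12 from 3806007 to 3914443, plus strand) had 64.5, 65.0 and 67.2 CPM at D0 and 47.5, 48.3 and 45.7 CPM at D5. The groups were narrow and apart, and its log2 fold change was -0.48 ± 0.041 (SE, edgeR's adjusted p = 6.1e-12). *Dnmt3b* (ENSMUSG00000027478.15, chromosome 2 from 153649450 to 153687730, plus strand), which is best known from the early embryo, was scarce. It had 149, 191 and 182 counts at D0 and 67, 71 and 58 counts at D5, or 3.98, 4.54 and 4.52 CPM and 2.67, 2.88 and 2.33 CPM. All D5 libraries lay below all D0 libraries, with a log2 fold change of -0.73 ± 0.134 (SE, edgeR's adjusted p = 1.3e-05). Its near copy *Dnmt3c*, a methyltransferase of the male germline that shares 9.81% of the 50-base stretches of *Dnmt3b*, had 2 counts in 1 library and 0 in the others. With scaling to the ERCC spike-ins the log2 fold change was -1.03 for *Dnmt3a* and -1.27 for *Dnmt3b*, with larger errors and adjusted p-values of 0.11 and 0.053 in edgeR's test.

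The make-up of the methyltransferase transcripts therefore differed between the groups. *Dnmt1* made up 87.4% ± 0.269 of the summed TPM of the 3 DNMT genes at D0 and 66.1% ± 2.27 at D5, *Dnmt3a* 10.3% ± 0.239 and 28.7% ± 1.65, and *Dnmt3b* 2.23% ± 0.13 and 5.21% ± 0.659 (SD, n = 3 each). The ratio of *Dnmt3a* to *Dnmt1* was 0.118, 0.115 and 0.121 at D0 and 0.463, 0.45 and 0.39 at D5, 3.66-fold larger. For *Dnmt3b* to *Dnmt1* the ratio was 3.07-fold larger at D5. In both cases all D5 libraries lay above all D0 libraries. Since *Dnmt3a* and *Dnmt3b* were themselves lower at D5 after TMM scaling, their larger shares go with the steeper decrease of *Dnmt1*.

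**Figure D2:**
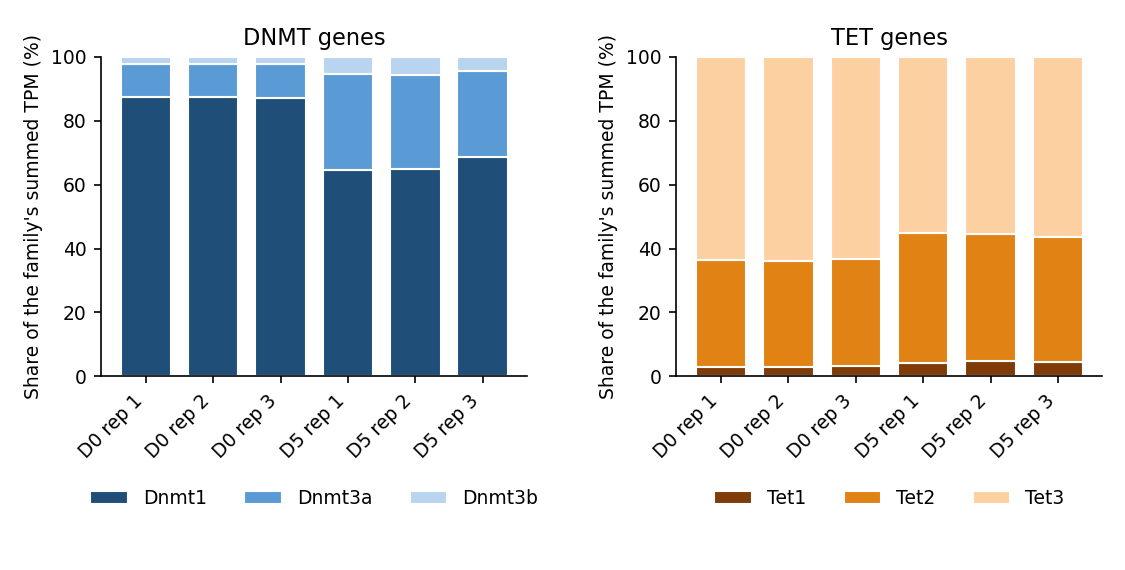
Share of each gene in the summed TPM of its family, in percent, with 1 stacked bar per library (DNMT genes left, TET genes right). In the DNMT panel *Dnmt1* takes 87.1% to 87.6% in the D0 libraries and 64.6% to 68.8% in the D5 libraries, and in the TET panel *Tet3* stays the largest share throughout.

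The TET genes changed little beside *Dnmt1* and *Uhrf1*. *Tet3* (ENSMUSG00000034832.15, chromosome 6 from 83362373 to 83459084, minus strand) was the most abundant of them and the one with the clearest decrease. It had 176, 176 and 180 CPM at D0 and 121, 123 and 125 CPM at D5, with no overlap, a log2 fold change of -0.53 ± 0.033 (SE, edgeR's adjusted p = 3.1e-15). *Tet2* (ENSMUSG00000040943.12, chromosome 3 from 133463679 to 133545139, minus strand) had 93.3, 92.9 and 96.1 CPM at D0 and 89.7, 89.2 and 88.1 CPM at D5. The groups came close without overlapping, and the log2 fold change was -0.08 ± 0.035 (SE, edgeR's adjusted p = 0.036). This call was lost with DESeq2 (adjusted p = 0.094) and without D0 replicate 3 or any of the D5 replicates.

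*Tet1* (ENSMUSG00000047146.17, chromosome 10 from 62804570 to 62908996, minus strand), the TET gene of embryonic stem cells, was the scarce member of the family. It had 290, 300 and 337 counts at D0 and 205, 235 and 224 counts at D5, or 7.74, 7.14 and 8.37 CPM and 8.16, 9.54 and 9.004 CPM. D0 replicate 3 lay above D5 replicate 1, so the groups overlapped. The log2 fold change was 0.20 ± 0.089 (SE, edgeR's adjusted p = 0.038), but it became -0.48 without scaling and -0.36 with the ERCC spike-ins, and the call was lost without D0 replicate 1 or 2 or D5 replicate 2 or 3. It was also lost with DESeq2 (adjusted p = 0.089) and, in edgeR's test, with upper-quartile scaling (adjusted p = 0.056), total counts (0.22) or no filter on low counts (0.16). Of the 9 genes it was the one whose direction turned with the scaling.

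Within the TET family *Tet3* took 63.6% ± 0.248 of the summed TPM at D0 and 55.7% ± 0.594 at D5, *Tet2* 33.4% ± 0.082 and 39.9% ± 0.724, and *Tet1* 3.00% ± 0.193 and 4.36% ± 0.309 (SD, n = 3 each). The ratio of *Tet3* to *Tet2* was 1.9 ± 0.011 and 1.4 ± 0.039, that of *Tet3* to *Tet1* 21.3 ± 1.46 and 12.8 ± 0.891, and that of *Tet2* to *Tet1* 11.2 ± 0.713 and 9.2 ± 0.782. The D5 libraries lay below the D0 libraries in all 3 ratios. The summed level of the TET genes went from 57.8 ± 1.67 to 41.0 ± 0.525 TPM, and that of the DNMT genes from 132 ± 4.01 to 30.7 ± 0.759 TPM (SD, n = 3 each). The ratio of the TET sum to the DNMT sum was 0.444, 0.427 and 0.446 at D0 and 1.37, 1.34 and 1.3 at D5, 3.05-fold larger. In myoblasts transcripts of the methyltransferases outnumbered those of the TET enzymes, and in myotubes the order was the opposite in all 3 libraries. These ratios within a library do not depend on how libraries are scaled to one another.

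**Figure D3:**
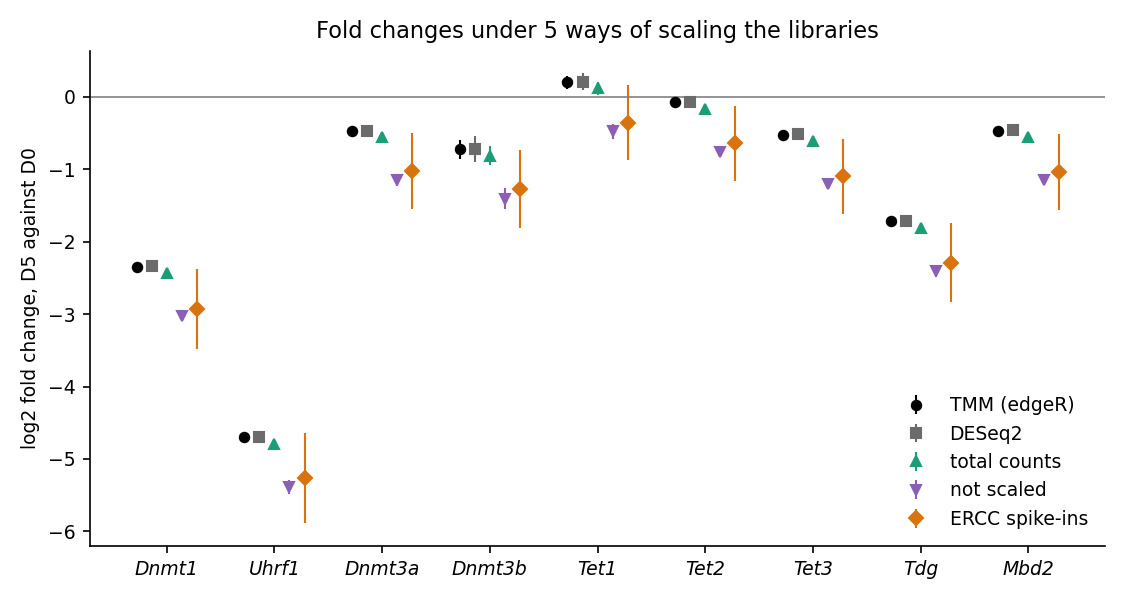
Log2 fold change of each gene at D5 against D0 under 5 ways of scaling the libraries, with standard errors as bars. *Uhrf1*, *Dnmt1* and *Tdg* lie far below 0 throughout, and *Tet1* goes from 0.20 with TMM to -0.48 without scaling.

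*Tdg* (ENSMUSG00000034674.18, chromosome 10 from 82629828 to 82650799, plus strand) had the third-ranked decrease. Its level was 46.6, 49.2 and 48.7 CPM at D0 and 14.1, 14.9 and 14.8 CPM at D5. The replicates were tight and the groups far apart, with a log2 fold change of -1.72 ± 0.052 (SE, edgeR's adjusted p = 2.2e-23). Its counts are less certain than those of the other genes, because 41.2% of its 50-base stretches also occur in other genes. The processed pseudogene *Gm9855*, on another stretch of chromosome 10, has 76.5% of its own stretches in *Tdg* and held 989, 1126 and 1121 counts at D0 and 215, 179 and 217 counts at D5. Its log2 fold change was -1.72 (adjusted p = 2.2e-20, edgeR), the same as that of *Tdg* to this precision. With the counts of both rows added, a setting added once the data had been seen, the level went from 75.2 ± 1.88 to 22.8 ± 0.713 CPM (SD, n = 3 each) and its log2 fold change stayed at -1.72. Since the separate rows had the same fold change, their sum could give no other, and the reads of the other rows that share stretches with *Tdg* were not added. A further 6.8% of the exonic bases of *Tdg* lie opposite exons of *Glt8d2*, and the strand setting of the counting is not given in the sources used here.

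The other genes of base excision and deamination went both ways. Of 14 tested, 6 were higher, 6 lower and 2 not called, with a median of 0.05, shares near those of all genes tested (42.2% higher and 40.8% lower). *Neil3*, a glycosylase of replicating cells, went from 16.8 ± 1.1 to 0.711 ± 0.105 CPM (SD, n = 3 each; log2 fold change -4.56, adjusted p = 4.2e-24, edgeR), and *Gadd45g*, a stress-response gene, changed by -1.77 (adjusted p = 1.3e-23, edgeR). *Apobec2*, a muscle protein of the cytidine deaminase family, rose from 1.07, 1.09 and 0.795 CPM to 76.8, 83.4 and 72.0 CPM, which is 6.29 on the log2 scale (adjusted p = 2.7e-32, edgeR). *Apobec1*, the deaminase that edits apolipoprotein B RNA, rose from 0.446 ± 0.119 to 5.98 ± 0.257 CPM (SD, n = 3 each; log2 fold change 3.74, adjusted p = 3e-18, edgeR). Of the 6 genes called higher, 3 stayed above 0 both without scaling and with the ERCC spike-ins: *Apobec2*, *Apobec1* and *Gadd45a*.

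*Mbd2* (ENSMUSG00000024513.16, chromosome 18 from 70568189 to 70626131, plus strand) binds methylated CpG and brings the NuRD complex, which deacetylates histones and remodels nucleosomes. It had 86.4, 82.4 and 81.7 CPM at D0 and 57.9, 60.0 and 62.7 CPM at D5. All D5 libraries lay below all D0 libraries, and the log2 fold change was -0.47 ± 0.04 (SE, edgeR's adjusted p = 4.3e-12), close in size to those of *Dnmt3a* and *Tet3*. With the ERCC spike-ins it was -1.04 with an adjusted p of 0.11, and that of *Tet3* -1.10 with an adjusted p of 0.087, both in edgeR's test.

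Among 10 other genes for readers of methylated CpG or relatives of such readers, 7 were lower and 3 higher at D5, with a median of -0.42. Of all genes tested 40.8% were called lower and 42.2% higher. None of the 3 stayed above 0 without scaling or with the spike-ins, and with the spike-ins 5 of the list were called lower. *Mbd4*, a reader that is also a glycosylase, went from 9.16 ± 0.373 to 3.54 ± 0.488 CPM (SD, n = 3 each; log2 fold change -1.37, adjusted p = 4.1e-13, edgeR), and *Zfp57*, which keeps methylation at imprinted loci, changed by -1.17 (adjusted p = 5.9e-16, edgeR). The genes with the largest increases in this list were *Zbtb4*, at 0.51 with TMM but -0.17 without scaling, and *Mbd1*, at 0.21 and -0.47. Of 13 genes of the NuRD complex 9 were lower, 3 higher and 1, *Mta3*, not called (log2 fold change 0.03, adjusted p = 0.59, edgeR), with a median of -0.47. These counts stand beside the same 40.8% lower and 42.2% higher among all genes tested. With the spike-ins 3 of the 13 were called lower. The summed level of the list changed little, from 2448 to 2457 CPM at D0 to between 2361 and 2440 CPM at D5. Its most abundant gene, *Chd4*, had means of 639 CPM at D0 and 723 CPM at D5. The log2 fold change of *Chd4* was 0.18 with TMM but -0.40 with the spike-ins. The deacetylase gene *Hdac1* went from 73.7 ± 0.404 to 37.0 ± 2.42 CPM (log2 fold change -0.99) and *Gatad2a* from 198 ± 1.95 to 100.4 ± 2.18 CPM (-0.98; SD, n = 3 each). The remodeller genes *Chd3* and *Chd5* were higher, with *Chd3* rising from 386 ± 2.75 to 676 ± 25.5 CPM (log2 fold change 0.81) and *Chd5* from 0.48 ± 0.118 to 1.85 ± 0.349 CPM (1.93; SD, n = 3 each), and both had log2 fold changes above 0 also without scaling and with the spike-ins, where 1 gene of the list was still called higher. The adjusted p-values in edgeR's test were 5.6e-19 for *Hdac1*, 5.8e-22 for *Gatad2a*, 6e-20 for *Chd3* and 1.7e-08 for *Chd5*.

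Per unit of length, the order of the 9 genes differed between the groups. In myoblasts *Uhrf1* stood first with 128 ± 1.68 TPM, followed by *Dnmt1* with 115 ± 3.4, *Mbd2* with 89.8 ± 1.38, *Tet3* with 36.7 ± 0.945 and *Tdg* with 31.0 ± 1.3 TPM (SD, n = 3 each). Then came *Tet2* with 19.3 ± 0.607, *Dnmt3a* with 13.6 ± 0.492, *Dnmt3b* with 2.95 ± 0.258 and *Tet1* with 1.73 ± 0.151 TPM, and no pair of neighbours in this order overlapped. In myotubes *Mbd2* stood first with 58.1 ± 1.76 TPM, followed by *Tet3* with 22.8 ± 0.365, *Dnmt1* with 20.3 ± 1.21 and *Tet2* with 16.4 ± 0.441 TPM. *Dnmt3a* with 8.78 ± 0.302 and *Tdg* with 8.42 ± 0.111 TPM overlapped, as did *Tet1* with 1.78 ± 0.104 and *Dnmt3b* with 1.6 ± 0.166 TPM. Between these pairs lay *Uhrf1*, which had gone from the first to the seventh place with 4.41 ± 0.478 TPM. Length was the union of annotated exons, which came to 16642 bases for *Dnmt3a* and 4259 for *Uhrf1*, and which transcripts of a gene were used was not tested. The place of *Tdg* in both groups, and its overlap with *Dnmt3a*, rest on its own row without the counts of *Gm9855*. How reads shared by these rows were assigned is not known.

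Enzymes that make the cofactors of these proteins were also measured. In the S-adenosylmethionine cycle, which supplies the methyl group, 4 of 8 genes tested were higher and 4 lower, near the shares of all genes, with a median of -0.05. Without scaling, which leaves in the lower depth of the D5 libraries, all 8 were called lower. With the spike-ins 2 were called lower and none higher. *Mtr*, methionine synthase, went from 125 ± 1.2 to 44.8 ± 0.051 CPM (SD, n = 3 each; log2 fold change -1.48, adjusted p = 1.5e-25, edgeR), and *Ahcy*, which clears the product inhibitor S-adenosylhomocysteine, changed by -0.83 (adjusted p = 3e-17, edgeR). *Mat2b*, a regulatory subunit of methionine adenosyltransferase, was among the 4 genes called higher (0.34), and all 4 were below 0 without scaling and with the spike-ins. *Mat1a*, the liver form of the synthetase, had 3 counts or fewer in every library. Among TET partners and enzymes that set the supply of 2-oxoglutarate, 7 of 9 tested were higher and 2 lower, with a median of 0.41. The shares of all genes tested were 42.2% higher and 40.8% lower. *D2hgdh*, which turns D-2-hydroxyglutarate, an inhibitor of TET enzymes, into 2-oxoglutarate, rose from 3.32 ± 0.193 to 8.5 ± 0.722 CPM (SD, n = 3 each; log2 fold change 1.36, adjusted p = 5.1e-13, edgeR). *Idh3g*, a subunit of mitochondrial isocitrate dehydrogenase, rose by 1.00 (adjusted p = 3e-21, edgeR), and *Idh2*, the mitochondrial enzyme that uses NADP, changed by -0.81 (adjusted p = 5.5e-19, edgeR). *Cxxc5*, a CpG-binding partner of TET2, changed by -0.27 (adjusted p = 1.1e-06, edgeR), and its relative *Cxxc4* had 3 counts or fewer in every library. Of the 7 genes called higher, 4 had log2 fold changes above 0 both without scaling and with the spike-ins, but 2 genes of the list were called higher without scaling, where 5 were called lower, and 0 with the spike-ins.

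**Figure D4:**
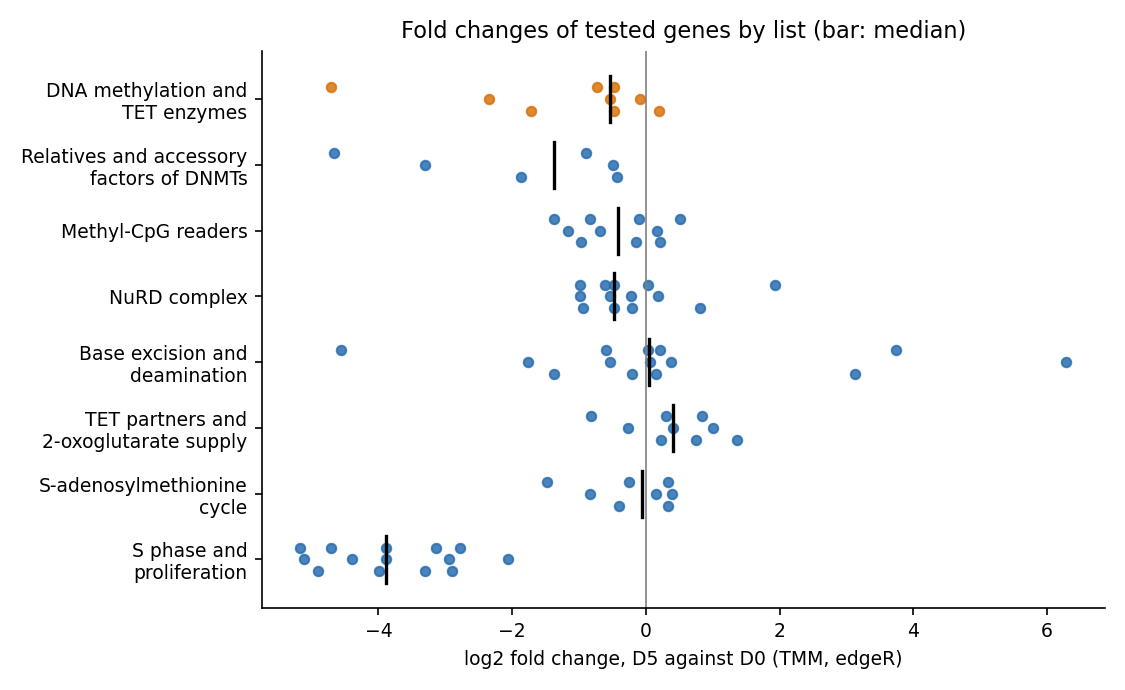
Log2 fold changes at D5 against D0 of the genes tested in 8 lists (TMM, edgeR), with 1 point per gene and a bar at the median of each list. The S phase list lies wholly below 0 (median -3.89), the 9 genes have a median of -0.53, and the base excision and deamination list spreads to both sides from -4.56 to 6.29.

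Germline genes that somatic cells are known to hold silent by promoter methylation stayed at or near 0 with 1 exception. Of 10 such genes *Dazl*, *Mael*, *Tex101*, *Asz1*, *Taf7l*, *Hormad1*, *Sycp1* and *Sycp3* had 3 counts or fewer in every library, and *Ddx4* did not pass the filter on low counts, with 0 counts at D0 and 4, 2 and 2 counts at D5. *Sohlh2*, a helix-loop-helix factor of germ cells, had 0, 2 and 0 counts at D0 and 232, 229 and 217 counts at D5, and was at least 121-fold higher at D5 against a floor of 3 counts in each library (adjusted p = 1.6e-22 in edgeR's test). A floor covers counting error only, and a germline gene below it was not detectable at this depth.

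The genes whose levels over the 6 libraries were most like that of *Uhrf1*, by the root mean square difference of centred log2 CPM among 11315 genes, were the histone genes *Hist1h2bb* (difference 0.058, log2 fold change -4.62) and *Hist1h2ab* (0.071, -4.73) and the sulfotransferase gene *Chst3* (0.076, -4.74). For *Tet1* they were *Slc39a13* (0.041, 0.21), *Polg2* (0.044, 0.26) and *Srgap1* (0.046, 0.14). With 2 groups of 3 libraries this measure mostly ranks genes by their fold change.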

How the data were processed

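The authors aligned reads to GRCm38 (mm10), counted them per gene with featureCounts and deposited raw counts, one file per sample. The labels name Tophat2 and the paper names HISAT2 as the aligner. Strand setting, annotation release and the handling of multi-mapped reads are not given in the sources used here. The 92 ERCC rows and a row equal to the column total were left out of library sizes. Groups came from the sample titles.

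Counts were filtered with filterByExpr, scaled by TMM and tested with the quasi-likelihood test of edgeR 4.0.16 in R 4.3.3, with Benjamini-Hochberg adjustment over 16290 genes. TPM used the union of GENCODE exons. Ratios were compared by an exact permutation test in scipy 1.17.1. Promoter windows are RefSeq's on GRCm38.p6. The alternatives were DESeq2 1.42.0, upper-quartile scaling, total counts, no scaling, ERCC scaling, no filter, a minimum of 10 counts per library, leaving out each library and the replicate number as a block. Genes named from a list are the 2 largest rises and 2 largest falls past the threshold with a mean of 10 counts in a group, plus genes with 3 counts or fewer throughout. *Gadd45a*, *Ddx4*, *Mta3*, *Chd4*, *Pdgfrb*, *Pcna*, *Trdmt1*, *Uhrf2*, *Usp7*, *Gm9855* and the other copies were named after their values were seen. For *Uhrf1* and *Tet1* the 3 most similar genes with a mean of at least 100 counts are given. The 9 genes and the lists were chosen with earlier results of these data known. Replicates differed by more than counting noise (chi-square per degree of freedom 2.16 to 3.45). Scripts were tested on simulated data. Some genes of the lists that this rule picks are not reported here by name.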

Additional observations from a re-analysis of the deposited data

How the results depend on the processing

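Under the other settings, 107 of 127 values for the 9 genes kept their direction and side of the threshold, 18 lost their call and 2 changed sign. The ratios and sums were recomputed with a library left out, with CPM in place of TPM and, for the ratios, with the replicate block. They kept their direction in all 70 values, and their exact p could not pass the threshold under any setting. Most of these directions were fixed beforehand. No ratio or sum overlapped between the groups, so leaving out a library could not turn it. The replicate block leaves the mean difference unchanged, and length cancels in a ratio of single genes. The 2 sign changes were those of *Tet1*, to -0.48 without scaling (adjusted p = 5.1e-06, edgeR) and -0.36 with ERCC scaling (adjusted p = 0.62, edgeR). The other lost calls were of *Tet1* and *Tet2*, and under ERCC scaling also of *Dnmt3a*, *Dnmt3b*, *Tet3* and *Mbd2*. Of the 9 genes 8 were lower, but 7 with DESeq2, 9 without scaling, 3 with ERCC scaling and 7 to 8 with a library left out. The number higher was 1, but 0 with DESeq2, upper-quartile scaling, total counts, no scaling, ERCC scaling or no filter, and 0 to 1 with a library left out. With a library left out, *Tet1* ranged from 0.13 to 0.26 (adjusted p from 0.013 to 0.21, edgeR) and *Tet2* from -0.10 to -0.07. Over all genes 13510 passed, 5560 with ERCC scaling. Lower calls were 49.2% of all calls with TMM, 76.6% without scaling and 67.4% with ERCC scaling. The values without scaling carry the lower depth of the D5 libraries and do not measure expression apart from it.

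D0 and D5 samples share replicate numbers, but the correlations of same-numbered samples (0.033, 0.064 and 0.028) were too small to pair them, although each sample correlated best with its own number. With the replicate number as a block 13558 genes passed, and 8 of the 9 genes were lower and 1 higher. ERCC scaling rests on spike-in shares that varied from 0.72% to 2.09% within D5 alone, and counts of low genes such as *Dnmt3b* and *Tet1* limit their precision.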
